A study of Mus musculus with 5 samples.

Results

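The 9 genes described here encode proteins of the apical junctions of epithelial cells, namely occludin (Ocln), the MARVEL-domain proteins tricellulin (Marveld2) and Marveld3, junctional adhesion molecule A (F11r), the zonula occludens proteins ZO-1 (Tjp1) and ZO-3 (Tjp3), cingulin (Cgn), nectin-2 (Nectin2) and E-cadherin (Cdh1). They were chosen by symbol, each symbol matched 1 row, and together they made up 9 of the 52143 genes in the table. Bulk RNA-Seq of colon tumors was compared between 2 samples labelled Control (numbers 1 and 4) and 3 labelled SIGLEC12 (numbers 2, 3 and 4), called replicates here. The series text counts mice per condition, but the sample labels name no animal, so that each SD and p measures the spread between these samples, which may be technical. Control mice carried Villin1-Cre-ERT alone (written Villin-Cre-RT in the series text), a tamoxifen-inducible Cre recombinase driven by the Villin1 promoter and therefore active in the intestinal epithelium. SIGLEC12 mice carried the same Cre and 1 floxed allele of human SIGLEC12 in the ROSA26 locus under a CAG promoter, which gives the protein Siglec-XII in the epithelium and not in the other cells of the tumor. Mice have no SIGLEC12 gene, and the human transcript was not analysed here. All mice were female and were 8 weeks old when they received tamoxifen (10 mg/mL for 5 days), then azoxymethane (AOM, 10 mg/kg), a carcinogen, and 4 cycles of 2.0% dextran sodium sulfate (DSS), which injures the colon lining, for 5 days each with 14 days of recovery. Tumors were taken on day 87. The comparison addressed what epithelial Siglec-XII changes in the RNA of chemically induced colon tumors.

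Epithelial cells of the colon are held together and sealed by junctions near their apical surface. In tight junctions, membrane proteins of the claudin, MARVEL and JAM families meet between neighboring cells, and plaque proteins of the ZO family and cingulin tie them to actin. In the adherens junction just below, E-cadherin and the nectins join the cells through calcium-dependent and immunoglobulin-type contacts, and their tails bind catenins and afadin. Loss of these contacts accompanies barrier failure in colitis, and lower E-cadherin is a known feature of invading carcinoma cells.

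Promoter sequence was available from RefSeq (GRCm38.p6) for 7 of the 9 genes, all but Cdh1 and Marveld3. The E-box recognized by the E-cadherin repressors of the Snail and ZEB families, searched on both strands as CACCTG or CAGGTG (each the reverse complement of the other), was present in 5 of the 10 windows of 250 bases upstream of a start of these genes. It was present in 17.2% of all 32851 such windows. The windows of the paired plaque genes Tjp1 and Tjp3, of Ocln and of Nectin2 are shown because the results turn on these genes and because these windows contained no annotated exon. Capitals mark the E-box.
Tjp1, chr7:65371245-65371494, minus strand: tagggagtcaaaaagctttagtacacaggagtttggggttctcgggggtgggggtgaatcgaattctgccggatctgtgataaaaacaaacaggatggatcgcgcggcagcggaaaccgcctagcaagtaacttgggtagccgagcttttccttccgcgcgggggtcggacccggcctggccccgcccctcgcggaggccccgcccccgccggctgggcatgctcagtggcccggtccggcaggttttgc
Tjp3, chr10:81291582-81291831, minus strand: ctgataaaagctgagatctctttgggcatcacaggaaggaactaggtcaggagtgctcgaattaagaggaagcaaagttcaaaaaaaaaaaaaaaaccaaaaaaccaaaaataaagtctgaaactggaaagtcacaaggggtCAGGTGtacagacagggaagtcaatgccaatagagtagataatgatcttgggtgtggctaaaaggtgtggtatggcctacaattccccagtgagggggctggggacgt
Ocln, chr13:100552719-100552968, minus strand: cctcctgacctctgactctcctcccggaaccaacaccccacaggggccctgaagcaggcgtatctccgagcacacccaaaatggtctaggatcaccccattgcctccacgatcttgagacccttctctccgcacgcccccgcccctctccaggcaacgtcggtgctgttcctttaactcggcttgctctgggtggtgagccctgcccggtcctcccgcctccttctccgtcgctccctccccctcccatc
Nectin2, chr7:19749574-19749823, minus strand: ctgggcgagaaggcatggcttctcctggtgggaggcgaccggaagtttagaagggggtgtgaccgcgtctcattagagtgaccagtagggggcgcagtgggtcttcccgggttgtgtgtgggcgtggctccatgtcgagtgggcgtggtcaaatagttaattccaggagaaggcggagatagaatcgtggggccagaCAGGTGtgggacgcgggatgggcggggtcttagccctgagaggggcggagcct
In the Tjp3 window the E-box began at position -108 and in the Nectin2 window at position -53, counted from the transcription start. The Tjp1 and Ocln windows held none, and neither did the windows of Marveld2 and Cgn. The Tjp1 and Nectin2 windows lie within the span of their gene, in an intron of longer transcripts, and the Tjp3 and Ocln windows lie outside it. The second Tjp3 start had a CACCTG at -17, the second Ocln start had CAGGTG at -213 and -68, and the F11r start had CACCTG at -122. Annotated exons took up 54, 155 and 34 bases of these windows. A match is a description of these letters only. The Snail and ZEB repressors, and Twist1, which belongs to neither family, were at low levels, and none passed the expression filter. Snai2 was at 1.39 and 0.72 in the Control samples and at 0.69, 0.71 and 0.53 in the SIGLEC12 samples (log2(TPM + 1)). The others were higher in every SIGLEC12 sample. Zeb1 was at 0.59 and 0.50 in Control and at 0.76, 0.68 and 1.25 in SIGLEC12. Zeb2 was at 0.35 and 0.38 in Control and at 1.14, 0.58 and 0.53 in SIGLEC12. Snai1 and Twist1 were below 1 TPM in every sample. Snai1 was at 0.01 and 0.09 in Control and at 0.39, 0.19 and 0.17 in SIGLEC12. Twist1 was at 0.01 and 0.03 in Control and at 0.22, 0.07 and 0.07 in SIGLEC12.

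Levels are given as log2(TPM + 1), the scale of the deposited table, in which TPM is a level already divided by transcript length and by the total of the sample. The composition of the samples and the first Control sample bear on every value below. Protein-coding genes held between 5.70% and 6.73% of the TPM in the Control samples and between 8.75% and 9.72% in the SIGLEC12 samples, so that the median of all 10338 tested genes was 0.38 higher in SIGLEC12 on the log2 scale. Each difference is therefore also given after every sample was rescaled to the same protein-coding total, which brought that median to 0.01. Control replicate 1 stood apart from the other 4 samples. Genes at 1 TPM or more numbered 7947 in that sample and between 9532 and 10090 in the others. Its 10 squamous epithelium markers summed to 2726 TPM against a range of 438.6 to 983 in the other 4 samples. The highest of them there were Krt14, Krt5 and Krt6a, at 10.16, 9.22 and 9.17, and Trp63, Dsg3 and Sbsn were also highest in that sample. Krt4 was lowest in it (4.30 against 5.85 to 7.45), and Krt13 and Krtdap lay within the range of the other 4 samples. The cornified-layer gene Ivl was below 1 TPM in all 5. The 15 columnar epithelium markers of Control replicate 1, of the type that lines the colon, summed to 388.7 TPM against 1150 in Control replicate 4 and 1273 to 1863 in SIGLEC12. In bulk tumor RNA, fewer cells of a type and less RNA per cell cannot be told apart.

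Of the 9 junction genes, 8 had a higher mean in SIGLEC12 (87.2% of all tested genes did) and 1 a lower mean (12.8%), and none passed the adjusted threshold (limma with Benjamini-Hochberg adjustment, adjusted p under 0.05 and at least 2-fold), as was the case for 0.0% of all tested genes. The smallest adjusted p over all genes was 0.0974. At least 2-fold differences were found for 0 of the 9 genes in either direction, against 4.68% of all tested genes higher and 0.754% lower. The 8 differences ran from 1.19-fold for Cgn to 1.87-fold for Tjp3, and ZO-1 (Tjp1) was the exception with nearly equal means. At an unadjusted p under 0.05, 6 of the 9 genes were higher in SIGLEC12 (all but Cdh1, Cgn and Tjp1), and 33.4% of all tested genes met the same criterion. None of the 9 was lower at that p, against 0.909%. Groups did not overlap, with SIGLEC12 higher, for 7 of the 9 (all but Tjp1 and Cgn), against 54.1% of all tested genes, and with SIGLEC12 lower for 0 of the 9, against 1.67%. With 2 samples against 3 there are 10 possible splits, so that an exact permutation test of a single gene cannot go below p = 0.1. All 9 genes passed the filter on low values (at least 1 TPM in at least 2 samples).

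The median difference of the 9 genes was 0.83 on the log2 scale, beside 0.38 for all tested genes. After rescaling the medians were 0.38 and 0.01, with 7 of the 9 genes above 0 (51.1% of all tested genes) and 2 below (48.9%), and 0 of the 9 at least 2-fold higher (0.871%) or lower (2.22%). Without Control replicate 1 they were 0.34 and 0.26 as deposited, and -0.05 and -0.05 after rescaling. Without Control replicate 4 the deposited medians were 1.20 and 0.52. The excess of the junction genes over the rest of the table was therefore present against Control replicate 1 and was not seen against Control replicate 4 once the samples were rescaled.

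**Figure D1:**
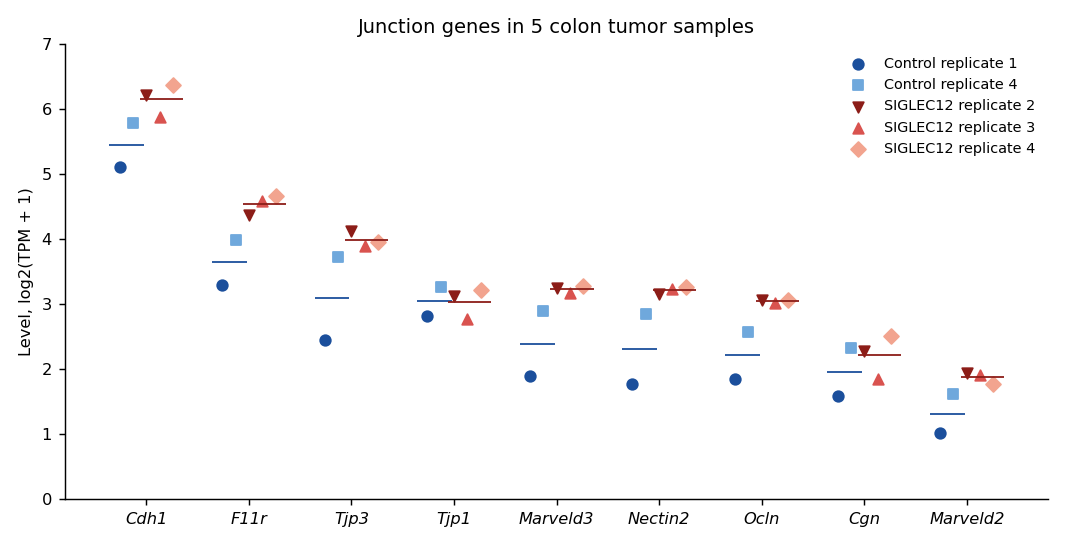
Levels of the 9 junction genes in each of the 5 colon tumor samples, as log2(TPM + 1), with genes in order of mean TPM. Points are samples and horizontal lines are group means (blue, 2 Control samples; red, 3 SIGLEC12 samples). Control replicate 1 was the lowest sample for 8 of the 9 genes, and Tjp1 was the exception.

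In the adherens junction, E-cadherin (Cdh1, chr8:106603351-106670246, plus strand, GRCm38) was the most abundant of the 9 genes. Its level was 5.10 and 5.78 in the Control samples and 6.21, 5.88 and 6.37 in the SIGLEC12 samples (log2(TPM + 1)), or 33.3 and 54.1 TPM against 72.8, 57.7 and 81.5 TPM. The lowest SIGLEC12 sample exceeded the higher Control sample by a small margin, and the gap between the 2 Control samples, 0.68, was nearly as large as the difference between group means. Means were 5.44 ± 0.48 (SD, n = 2) and 6.15 ± 0.25 (SD, n = 3), a difference of 0.71 (SE 0.30, limma adjusted p = 0.151), or 1.63-fold. It was 0.37 without Control replicate 1. After rescaling the difference was 0.16 (SE 0.24) and the groups overlapped.

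Nectin-2 (Nectin2, chr7:19716644-19750483, minus strand), an immunoglobulin-type adhesion receptor that also serves as a ligand for lymphocyte receptors, was at 1.77 and 2.85 in the Control samples and at 3.15, 3.23 and 3.26 in the SIGLEC12 samples. The SIGLEC12 samples lay within 0.11 of each other, whereas the Control samples were 1.08 apart. The difference of means, 2.31 ± 0.76 (SD, n = 2) against 3.21 ± 0.06 (SD, n = 3), was 0.90 (SE 0.32, limma adjusted p = 0.117). It was 0.36 without Control replicate 1. After rescaling it was 0.45 (SE 0.28) with overlapping groups, and -0.02 when Control replicate 1 was also left out. Exons of Nectin2 overlap the antisense transcript Gm20512, whose level was between 0.03 and 0.11 in every sample.

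Among the membrane proteins of the tight junction, occludin (Ocln, chr13:100496507-100552718, minus strand), a 4-pass MARVEL protein, was at 1.85 and 2.57 in the Control samples and at 3.06, 3.01 and 3.06 in the SIGLEC12 samples. All SIGLEC12 samples were above both Control samples, and the spread of the SIGLEC12 samples was smaller than for any other of the 9 genes. Means were 2.21 ± 0.51 (SD, n = 2) and 3.04 ± 0.03 (SD, n = 3), a difference of 0.83 (SE 0.25, limma unadjusted p = 0.0131, adjusted p = 0.0997), or 1.78-fold. It was 0.47 without Control replicate 1. After rescaling, Ocln was at 2.21 and 2.78 in Control and at 2.92, 2.89 and 2.81 in SIGLEC12. The groups then stayed apart by 0.03, with a difference of 0.38 (SE 0.20, adjusted p = 0.479), and the rescaled difference was 0.10 without Control replicate 1.

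Tricellulin (Marveld2, chr13:100595957-100616971, minus strand), which seals the corners where cells of 3 neighbors meet, is encoded beside occludin, on the same strand with 43238 bases between the genes. It was the least abundant of the 9, at 1.01 and 1.61 in Control and at 1.94, 1.91 and 1.77 in SIGLEC12. The groups did not overlap, and the difference was 0.57 (SE 0.21, limma adjusted p = 0.125). Marveld3 (chr8:109947914-109962203, minus strand), the last of the MARVEL proteins of the tight junction, was at 1.89 and 2.89 in Control and at 3.24, 3.17 and 3.28 in SIGLEC12. Its difference was 0.84 (SE 0.30, limma adjusted p = 0.120), and the Control samples were farther apart from each other than the group means. Without Control replicate 1 the differences of Marveld2 and Marveld3 were 0.26 and 0.34. After rescaling, Marveld2 and Marveld3 were 0.22 and 0.38 higher in SIGLEC12, both with overlapping groups. Both differences were slightly below 0, at -0.04 and -0.05, when Control replicate 1 was left out as well.

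Junctional adhesion molecule A (F11r, chr1:171437535-171464603, plus strand), an immunoglobulin-type protein that recruits polarity complexes to new contacts, was the second most abundant gene. Its level was 3.29 and 3.99 in Control and 4.37, 4.59 and 4.66 in SIGLEC12. Every SIGLEC12 sample was above both Control samples, and the difference of 0.90 (SE 0.27, limma unadjusted p = 0.0152, adjusted p = 0.101) was 1.86-fold. It was 0.54 without Control replicate 1. The difference of F11r was above 0 under every alternative, from 0.13 (rescaled, without Control replicate 1) to 1.25 (without Control replicate 4). After rescaling the difference was 0.38 (SE 0.22), and the lowest SIGLEC12 sample and the higher Control sample had the same rounded value, 4.22. Groups that did not overlap with SIGLEC12 higher were then found for F11r and Ocln, 2 of the 9 genes, against 15.6% of all tested genes, and 0 of the 9 had an unadjusted p under 0.05 in that direction, against 4.45%.

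In the plaque, the paired scaffolds ZO-3 and ZO-1 had different profiles. ZO-3 (Tjp3, chr10:81273207-81291581, minus strand) was at 2.45 and 3.72 in Control and at 4.12, 3.89 and 3.95 in SIGLEC12. Control replicate 4 was closer to the SIGLEC12 samples than to Control replicate 1. The difference was 0.90 (SE 0.37, limma unadjusted p = 0.0493, adjusted p = 0.145), it was 0.27 without Control replicate 1, and after rescaling it was 0.41 (SE 0.34) with overlapping groups. Exons of Tjp3 overlap those of Apba3 on the opposite strand, which was between 1.32 and 1.57 in all samples.

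ZO-1 (Tjp1, chr7:65296165-65527781, minus strand), the scaffold that binds claudins, occludin and actin, was at 2.81 and 3.26 in Control and at 3.12, 2.77 and 3.21 in SIGLEC12. The groups overlapped, and the lowest of the 5 samples was SIGLEC12 replicate 3. Means were 3.04 ± 0.31 (SD, n = 2) and 3.03 ± 0.23 (SD, n = 3), with a difference of -0.0041 (SE 0.24, limma adjusted p = 0.990). The sign of so small a difference was not stable. The difference was -0.23 without Control replicate 1, 0.22 without Control replicate 4 and 0.13 without SIGLEC12 replicate 3. After rescaling, Tjp1 was at 3.24 and 3.47 in Control and at 2.98, 2.65 and 2.96 in SIGLEC12. All SIGLEC12 samples were then below both Control samples, by 0.25 at the nearest pair, with a difference of -0.49 (SE 0.18, limma unadjusted p = 0.0353, adjusted p = 0.457). The rescaled difference was -0.61 without Control replicate 1. Tjp1 was the only one of the 9 genes with a lower, non-overlapping SIGLEC12 group after rescaling, against 16.8% of all tested genes, and the only one with an unadjusted p under 0.05 in that direction, against 6.31%.

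Cingulin (Cgn, chr3:94760069-94786492, minus strand), which binds ZO proteins and microtubules, was at 1.58 and 2.32 in Control and at 2.27, 1.85 and 2.50 in SIGLEC12. The groups overlapped, and SIGLEC12 replicate 3 was again the lowest of its group. The difference was 0.25 (SE 0.29, limma adjusted p = 0.520), and its direction turned with the scaling, to -0.16 (SE 0.24) after rescaling. It was -0.11 without Control replicate 1.

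**Figure D2:**
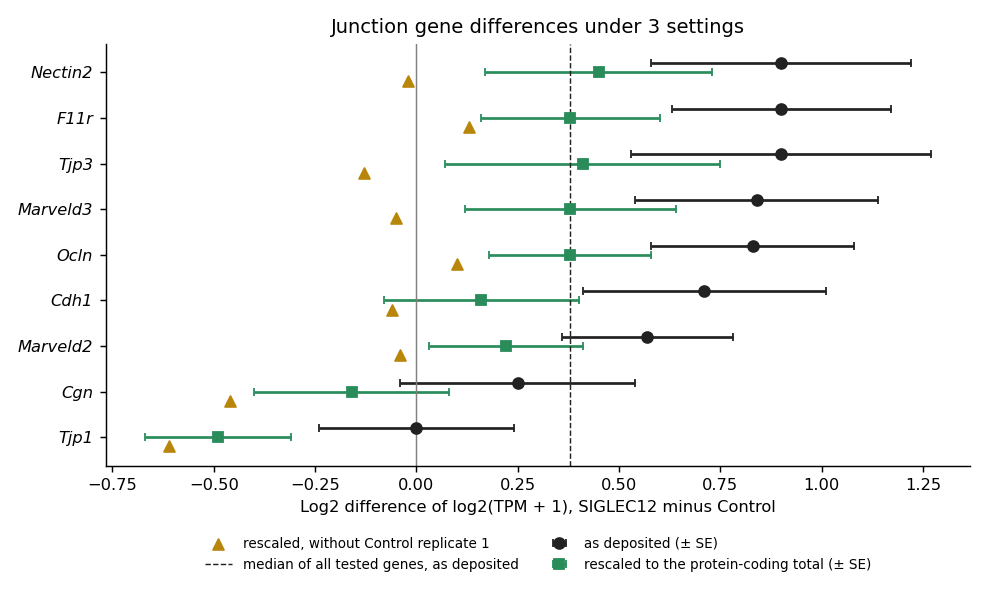
Difference of each junction gene between SIGLEC12 and Control (SIGLEC12 minus Control, log2(TPM + 1) scale) as deposited (black, ± SE), rescaled to the protein-coding total (green, ± SE) and rescaled without Control replicate 1 (gold). The dashed line is the median of all tested genes as deposited, 0.38. Tjp1 was near 0 as deposited and at -0.49 after rescaling, and 7 of the 9 gold triangles lie below 0.

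Ratios of TPM within a sample do not depend on the scaling of that sample. Of 6 pairs of partners compared, Tjp3 to Tjp1 was the only pair whose groups did not overlap on the TPM scale. On the log2(TPM + 1) scale, which shrinks ratios of low genes, Marveld2 to Ocln (-0.27) and Cgn to Tjp1 (0.26) did not overlap either (exact permutation p = 0.1 for each). Through the pseudocount, ratios on that scale do depend on the level of the genes and so on the scaling of the sample. ZO-3 RNA was 0.743 and 1.42 times ZO-1 RNA in the Control samples and 2.14, 2.38 and 1.75 times in the SIGLEC12 samples (ratio of TPM). The ZO-3 share was thus lowest in Control replicate 1, where Tjp1 exceeded Tjp3, and the other Control sample lay between it and the SIGLEC12 samples. The mean log2 ratios were 0.04 ± 0.66 (SD, n = 2) and 1.05 ± 0.23 (SD, n = 3), which differed by 1.01 (exact permutation p = 0.1, two-sided, the smallest these samples allow; adjusted p = 0.6 over the 6 pairs). It was 0.55 without Control replicate 1.

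On the TPM scale, Marveld2 was 0.388 and 0.414 times Ocln in Control and 0.388, 0.392 and 0.328 times in SIGLEC12, with a log2 difference of -0.12 (exact permutation p = 0.5). For Marveld3 to Ocln the 5 ratios ran from 1.05 to 1.30 and the log2 difference was -0.01 (exact permutation p = 0.9). The remaining pairs also overlapped, with log2 differences of 0.35 for Cgn to Tjp1, 0.24 for F11r to Cdh1 and 0.37 for Nectin2 to Cdh1 (exact permutation p = 0.3, 0.5 and 0.5). Nectin2 was 0.0727 times Cdh1 in Control replicate 1 and between 0.105 and 0.145 times in the other 4 samples.

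**Figure D3:**
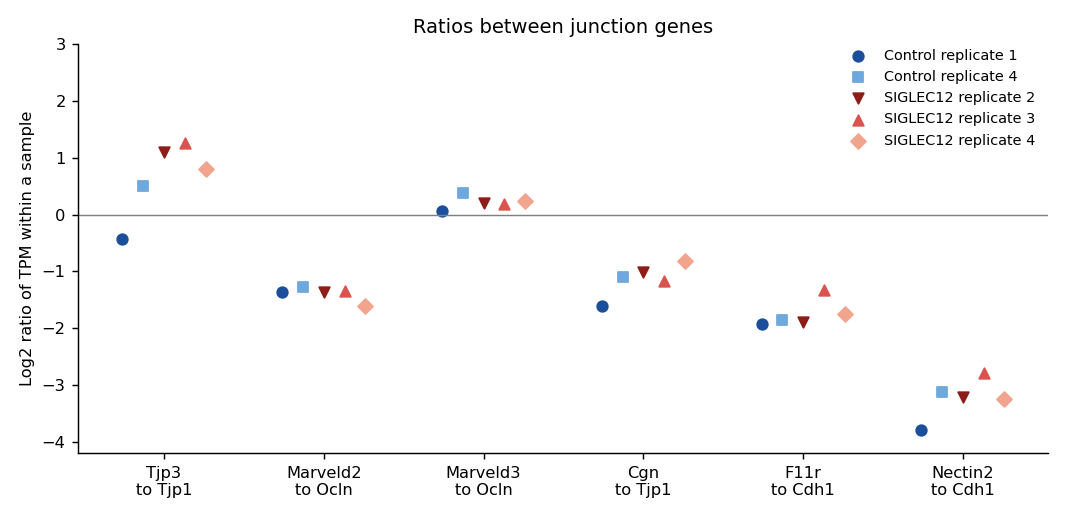
Log2 ratio of the TPM of 2 junction genes within each of the 5 samples, for the 6 pairs compared. Points are samples (blue, Control; red, SIGLEC12). The Tjp3 to Tjp1 ratio was between -0.43 and 0.50 in Control and between 0.80 and 1.25 in SIGLEC12, and on this scale the groups overlapped for the other 5 pairs.

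Because these genes are expressed by epithelium, each was also set against the mean log2(TPM + 1) of the 15 columnar epithelium markers in the same sample. Against this list the groups overlapped for 7 of the 9 genes, with differences between -0.24 (Marveld2) and 0.10 (Tjp3 and Nectin2) and exact permutation p between 0.6 and 0.9. Tjp1 was -1.21 and -2.12 relative to the columnar markers in Control and -2.29, -2.53 and -2.60 in SIGLEC12. Cgn was at -2.44 and -3.06 in Control and at -3.14, -3.44 and -3.31 in SIGLEC12. For both plaque genes every SIGLEC12 sample was lower than both Control samples, with differences of -0.81 and -0.55 (exact permutation p = 0.1 for each, adjusted p = 0.45 over the 9 genes), and Control replicate 1 was the highest sample. Without Control replicate 1 the differences were -0.35 and -0.24. The overlap depended on the reference. Relative to Epcam alone, a further gene of simple epithelium, all 9 junction genes had every SIGLEC12 sample below both Control samples, with differences from -0.43 (Tjp3, F11r and Nectin2) to -1.33 (Tjp1) and exact permutation p = 0.1 for 8 genes and 0.2 for Tjp3. Without Control replicate 1 they were between -0.86 (Tjp1) and -0.09 (F11r). Epcam itself was 1.33 higher in SIGLEC12 as deposited, more than any of the 9 genes, beside a median of 0.38 for all tested genes. The mean of the columnar list was itself 4.70 in Control and 5.50 in SIGLEC12. The share of all tested genes that were lower, or lower without overlap, was not computed for the columnar list or for Epcam. The columnar list itself had a median difference of 0.90 as deposited over its 14 tested genes and 0.38 after rescaling, near the 0.83 and 0.38 of the junction genes, and 0.29 without Control replicate 1. As deposited 12 of its tested genes were above 0 (87.2% of all tested genes were) and 2 below. These 2 were Slc26a3 (-1.51, and -2.15 without Control replicate 1) and Car1 (-0.53 and -1.39). Both are part of the mean used as the reference above. The squamous list had a median of -0.94 over 9 tested genes, and -0.24 without Control replicate 1. The part of these epithelial markers in the junction gene differences was not tested. Endothelial markers summed to 0.957 and 1.016 TPM in Control and to 4.84, 2.08 and 2.67 TPM in SIGLEC12, and lymphoid markers to 0.384 and 0.470 TPM in Control and to 1.97, 1.30 and 0.859 TPM in SIGLEC12. Both sums, like those of the junction genes, were higher in every SIGLEC12 sample, at levels too low for any of these markers to pass the filter. Fibroblast markers summed to 9.63 and 11.9 TPM in Control and to 64.3, 19.5 and 27.4 TPM in SIGLEC12, smooth muscle markers to between 45.3 and 112.3 TPM, and myeloid markers to between 3.34 and 17.7 TPM. The part of these other cell types was not tested either.

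**Figure D4:**
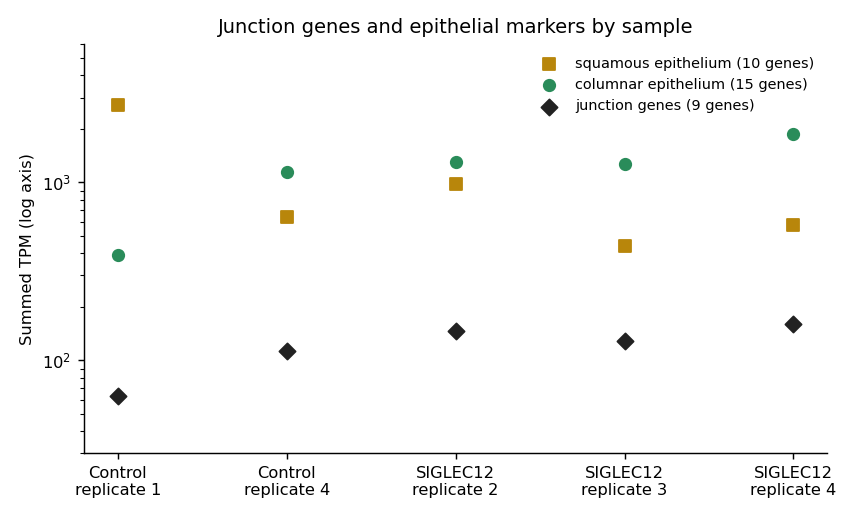
Summed TPM (log axis) of the 9 junction genes, the 15 columnar epithelium markers and the 10 squamous epithelium markers in each of the 5 samples. Control replicate 1 had the highest squamous sum (2726 TPM) and the lowest columnar (388.7 TPM) and junction (63.3 TPM) sums.

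Transcript length also moved with the difference between the groups over the whole table. Among the tested protein-coding genes, the median difference was 0.57 for the shortest tertile by length (up to 2235 nt), 0.39 for the middle tertile and 0.27 for the longest tertile (3974 nt and above). The longest transcript of Tjp1 is 7049 nt, of Cgn 5016 nt, of Cdh1 4430 nt and of Ocln 4052 nt, which places these genes in the longest tertile. Tjp3 (3024 nt), Marveld2 (3111 nt), Marveld3 (2447 nt), F11r (2518 nt) and Nectin2 (2735 nt) are in the middle tertile, and no junction gene is in the shortest. After the trend on length was removed from the rescaled samples, Tjp1 was -0.37 and Cgn -0.10, while the other 7 genes were between 0.20 (Marveld2) and 0.42 (Ocln). As deposited, the 4 genes of the longest tertile differed by -0.0041 (Tjp1), 0.25 (Cgn), 0.71 (Cdh1) and 0.83 (Ocln). The part of transcript length in the junction gene differences was not tested.

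In order of level, which TPM allows between genes because it is per length, Cdh1 came first in every sample, with a mean of 59.9 TPM, and F11r came second in every sample, with 18.1 TPM. Their ranges did not overlap, and Cdh1 was between 2.51 and 3.80 times F11r. Tjp3 (12.3 TPM), Tjp1 (7.27 TPM), Marveld3 (6.87 TPM), Nectin2 (6.70 TPM), Ocln (5.85 TPM), Cgn (3.42 TPM) and Marveld2 (2.21 TPM) followed, and the ranges of each neighboring pair from F11r downward overlapped. The place of Tjp1 changed: it was above Tjp3 in Control replicate 1, directly below Tjp3 in Control replicate 4, and below Tjp3, Marveld3 and Nectin2 in all 3 SIGLEC12 samples. Cdh1 made up between 44.7% and 52.6% of the summed TPM of the 9 genes. That sum was 63.3 and 113.4 TPM in Control and 146.8, 129.2 and 160.1 TPM in SIGLEC12.

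The genes differed in how closely they followed their common profile, the mean of the 9 after each gene's own mean was subtracted. Ocln, Cdh1 and Marveld3 were nearest, at a root-mean-square distance of 0.102, 0.106 and 0.112 on the log2 scale over the 5 samples, and Cgn and Tjp1 were farthest, at 0.246 and 0.353. Of 2842 other named genes with a mean of at least 5 TPM, the nearest to this profile were Atp13a3 (0.0473), a P-type transporter of polyamines, Trim16 (0.0518), a tripartite-motif protein, and Ctbp2 (0.0630), a transcriptional corepressor. Atp13a3 was at 2.13 and 2.87 in Control and at 3.13, 2.98 and 3.29 in SIGLEC12. The 3 were chosen from many genes for this likeness.

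Another 66 junction and polarity genes in 5 lists gave the setting for the 9, and 52 of them were tested. None passed the adjusted threshold. As deposited 40 of the 52 were above 0 (87.2% of all tested genes were) and 12 below, with 10 higher (33.4% of all) and 0 lower (0.909%) at an unadjusted p under 0.05 and a median of 0.29. After rescaling 20 were above 0 (51.1% of all) and 32 below (48.9%), 2 higher (4.45%) and 6 lower (6.31%) at an unadjusted p under 0.05, and the median was -0.15 beside 0.01 for all tested genes. The median of the 9 genes, 0.38, was on the other side of that of all tested genes. Rescaled without Control replicate 1, the medians were -0.20 for the 52 genes and -0.05 both for the 9 genes and for all tested genes.

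Of the other tight junction membrane genes, 7 of 11 were tested, with a median of 0.87 as deposited and 0.48 after rescaling. Epcam, an adhesion protein of simple epithelium that stabilizes claudins, was at 4.92 and 6.31 in Control and at 6.85, 6.92 and 7.06 in SIGLEC12, a difference of 1.33 (SE 0.42, limma adjusted p = 0.102). Lsr, the angulin that brings tricellulin to tricellular corners, was at 3.06 and 3.78 in Control and at 4.59, 4.72 and 4.73 in SIGLEC12, a difference of 1.26 (SE 0.27, limma adjusted p = 0.0974). For both genes the groups did not overlap, and this also held after rescaling, with 0.79 for Epcam and 0.74 for Lsr. Higher SIGLEC12 groups without overlap were found for 54.1% of all tested genes as deposited and for 15.6% after rescaling. Without Control replicate 1 the deposited differences were 0.63 and 0.90, and the rescaled ones 0.21 and 0.49. The other angulin tested, Ildr1, differed by 0.58, and by 0.27 without Control replicate 1. Jam2, Jam3, Esam and Ildr2 were below 1 TPM in every sample.

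The plaque list (19 of 22 tested) had a median of 0.28 as deposited and -0.13 after rescaling. Its ends were Cgnl1 (paracingulin, 0.81) and Amot (angiomotin, 0.66) at the top and Pard6g (-0.72) and Amotl2 (-0.31) at the bottom. These were 0.64, 0.32, -0.06 and -0.11 without Control replicate 1. The adherens junction list (12 of 14 tested) had a median of 0.23 and, after rescaling, of -0.24. Cdh17, the intestinal liver-intestine cadherin, differed by 1.39 and Jup, the plakoglobin shared by adherens junctions and desmosomes, by -0.64. These were 0.66 and -0.07 without Control replicate 1. After rescaling Cdh17 was at 0.88 with overlapping groups, and Jup at -1.18 with a lower, non-overlapping SIGLEC12 group. Rescaled without Control replicate 1 they were at 0.25 and -0.49. The other nectins differed in sign, with none past the adjusted threshold. Nectin3 was at 1.18 and 2.26 in Control and at 2.76, 2.73 and 3.06 in SIGLEC12. The difference was 1.13 (SE 0.33, limma adjusted p = 0.0988). Its groups stayed apart after rescaling (0.72), as did those of 15.6% of all tested genes in that direction. Without Control replicate 1 the deposited difference was 0.59 and the rescaled one 0.23. Nectin1 was at 3.84 and 2.65 in Control and at 2.89, 2.06 and 2.17 in SIGLEC12. The difference was -0.87 (SE 0.41, limma adjusted p = 0.177), and -0.28 without Control replicate 1. After rescaling Nectin1 was at -1.35 with a lower, non-overlapping SIGLEC12 group, as were 16.8% of all tested genes. It was -0.64 when Control replicate 1 was also left out. Nectin4, named after its values were seen, was at 2.96 and 1.98 in Control and at 2.35, 2.02 and 1.76 in SIGLEC12. The difference was -0.42, and 0.07 without Control replicate 1. Rescaled, Nectin4 was at -0.87 with overlapping groups, and at -0.25 without Control replicate 1. For Nectin1 and Nectin4 the highest sample was Control replicate 1, which was the lowest for Nectin2 and Nectin3.

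All 8 basolateral polarity genes were above 0 as deposited, as were 87.2% of all tested genes, from Llgl1 (0.12) and Scrib (0.18) to Llgl2 (0.57) and Erbin (0.59), with a median of 0.31. After rescaling their median was -0.17 and 6 of the 8 were below 0 (48.9% of all tested genes), so that the direction of this list turned with the scaling. Scrib was 0.36, Llgl2 0.31 and Erbin 0.16 without Control replicate 1. Of the 11 regulators of junction genes, 6 were tested. Elf3, an epithelial Ets factor, differed by 0.97 and the splicing factor Esrp1 by 0.34, whereas Ovol1, a repressor of mesenchymal genes, differed by -0.74 and Esrp2 by -0.34. Elf3 was 0.43 without Control replicate 1. Ovol1 was at 2.65 in Control replicate 1 and between 0.86 and 1.17 in the other 4 samples, and its difference was 0.11 without that sample. Esrp2 was at 3.09 and 3.12 in Control and at 2.78, 2.54 and 2.98 in SIGLEC12, with groups that did not overlap. Lower SIGLEC12 groups without overlap were found for 1.67% of all tested genes.

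**Figure D5:**
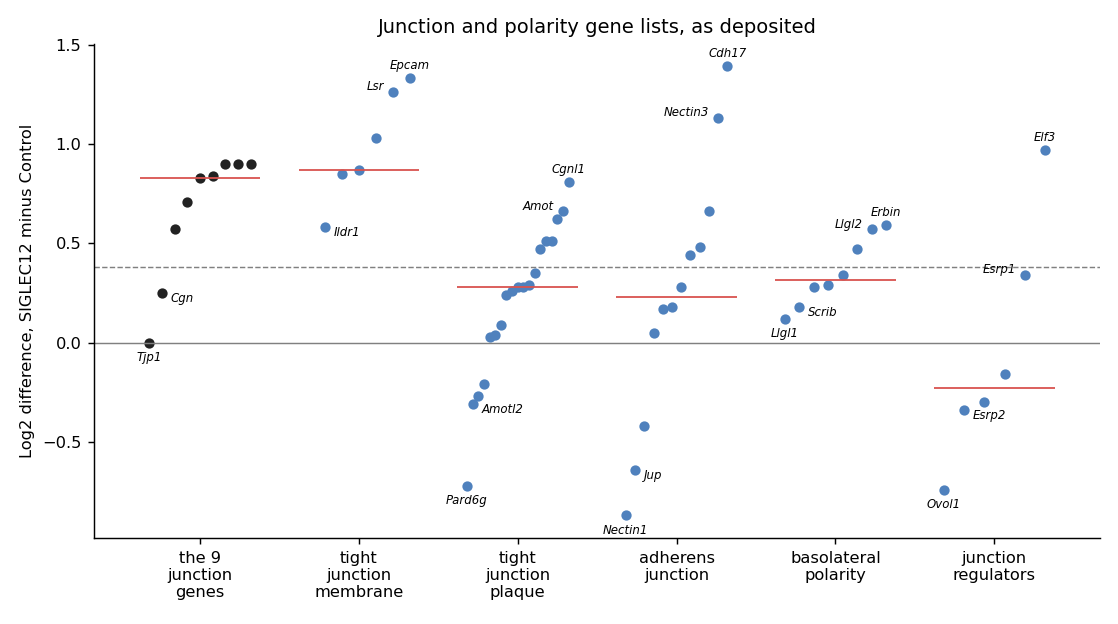
Log2 difference (SIGLEC12 minus Control, as deposited) of the 9 junction genes (black) and of the tested genes of the other 5 lists (blue), with 1 gene not shown. Each point is a gene, red lines are list medians, and the dashed line is the median of all tested genes, 0.38. The 9 genes and the tight junction membrane list had medians of 0.83 and 0.87, above the dashed line, and the other lists had medians between -0.23 and 0.31.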

How the data were processed

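Tumor RNA was sequenced in 2 Control and 3 SIGLEC12 samples. The labels name a stranded total RNA kit and the study's methods a stranded mRNA kit. The authors deposited 1 gene table of log2 values, log2(TPM + 1). The submitters' processing notes name kallisto 0.45.0 and GRCm38, whereas the methods describe another kallisto version and a human reference. TPM keeps no read depth, which is unknown, and no counting error can be given. The series text states 3 mice per condition, but only 2 Control samples were among those deposited, all of which were used. The methods state that 3 technical replicate libraries were made from each sample. The sample labels do not say whether a deposited sample is 1 such library or a mouse, so the spread behind the p-values may be technical.

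Genes with at least 1 TPM in at least 2 samples (10338 genes) were tested with limma 3.58.1 (lmFit, eBayes with trend) in R 4.3.3, as a count model needs counts, and p-values were adjusted by Benjamini-Hochberg over all of them. The threshold for a call was 2-fold and 0.05. Fold changes are on the log2(TPM + 1) scale, with a pseudocount of 1, and understate changes of low genes. Ratios and differences from the columnar markers were tested by two-sided exact permutation. Rescaling multiplied the TPM of each sample to a common protein-coding total. Scripts were tested on simulated data. Alternatives were another scaling, pseudocount, filter and reference, and leaving out each sample. Gene positions are those of GENCODE M21 (GRCm38), which holds 98.45% of the gene identifiers, and promoter windows are from RefSeq.

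The 9 genes, the other lists and the tests were chosen with earlier results of these data known. Named genes were all 9, the 2 largest and 2 smallest differences of each other list, and the 3 genes nearest in profile, except 1 list gene that is not reported here. The marker lists were columnar and squamous epithelium, fibroblast, smooth muscle, endothelium, myeloid and lymphoid.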

Additional observations from a re-analysis of the deposited data

How the results depend on the processing

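With 2 Control samples, of unknown depth, the Control samples limit every value. No gene passed the adjusted threshold under any scaling, filter, pseudocount or trend setting, where the smallest adjusted p (limma) ran from 0.0537 to 0.210. Leaving out 1 sample at a time gave 0 to 962 genes higher and 0 to 97 lower, the 962 and 97 without Control replicate 4 and a count of 1 without SIGLEC12 replicate 4. A Control sample left alone is assumed to vary like the SIGLEC12 samples. Without Control replicate 4, the log2 differences were 1.20 for Ocln, 1.53 for Tjp3, 1.34 for Marveld3, 1.25 for F11r and 1.44 for Nectin2. The other junction genes were at 1.05 for Cdh1, 0.87 for Marveld2, 0.62 for Cgn and 0.22 for Tjp1. The median of all tested genes was 0.52 in that setting. The number of junction genes higher at an unadjusted p under 0.05 was 6 as deposited and 0 with the protein-coding total, median-ratio size factors, quantile normalization or rescaling with the length trend removed. It ran from 0 without Control replicate 1 to 7 without Control replicate 4, and was 2 without any 1 of the SIGLEC12 samples. The median of the junction genes was 0.38, 0.37, 0.31 and 0.32 under the same 4 scalings, 0.34 to 1.20 when 1 sample was left out, and -0.05 when rescaled without Control replicate 1. That last setting and the removal of the length trend were chosen after seeing the data.

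Some differences changed sign. Cgn was -0.16 rescaled, -0.17 with median-ratio factors, -0.13 with quantile normalization, -0.10 with the length trend removed, and -0.46 rescaled without Control replicate 1, and it ran from -0.11 to 0.62 when 1 sample was left out. Rescaled without Control replicate 1, Tjp3 was -0.13, Marveld2 -0.04, Marveld3 -0.05, Nectin2 -0.02 and Cdh1 -0.06. Tjp1 ran from -0.23 to 0.22 when 1 sample was left out, with 0.13 without SIGLEC12 replicate 3. It was -0.50 with median-ratio factors, -0.51 with quantile normalization and -0.61 rescaled without Control replicate 1. Ocln and F11r were above 0 under all 14 alternatives. Relative to Epcam alone in place of the columnar list, all 9 genes were lower in SIGLEC12 without overlap, with Tjp1 at -1.33, Cgn -1.08, Marveld2 -0.76, Cdh1 -0.62, Ocln -0.50, Marveld3 -0.49, and Tjp3, F11r and Nectin2 -0.43 each. Epcam itself differed by 1.33 as deposited, more than any of the 9 genes. Relative to the columnar list, leaving out 1 sample gave -0.29 to 0.34 for Ocln, -0.02 to 0.27 for Tjp3, -0.61 to 0.14 for Marveld2, -0.15 to 0.21 for Marveld3, -0.23 to 0.42 for F11r, -0.04 to 0.23 for Nectin2, -0.43 to 0.24 for Cdh1, -1.26 to -0.35 for Tjp1 and -0.86 to -0.24 for Cgn. The difference between groups in the Marveld3 to Ocln log2 ratio was 0.00 on the log2(TPM + 1) scale and -0.17 to 0.15 when 1 sample was left out. On that scale the groups no longer overlapped for Marveld2 to Ocln (-0.27) and Cgn to Tjp1 (0.26). The difference for Tjp3 to Tjp1 was 0.55 to 1.48 when 1 sample was left out. The cause of these shifts was not tested. No paired analysis was possible because number 4 alone occurs in both groups.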
